A study of Mus musculus with 14 samples.

Results

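The neurotransmitter receptors of gut muscle described here are 8 genes that were taken by name: the muscarinic receptor genes Chrm2 and Chrm3, the tachykinin receptor genes Tacr1 and Tacr2, the serotonin receptor genes Htr4 and Htr2b, and the adrenergic receptor genes Adrb3 and Adra1a. They are 8 of the 40481 genes in the bulk RNA-seq table, and all 8 passed the filter on low counts that left 20886 genes to test. The bulk libraries came from the muscularis, the muscle layers of the gut wall together with nerve plexus and interstitial cells, of C57BL/6 mice. Colon and jejunum each gave 3 libraries with the genotype label Carmn iKO, written KO here, and 3 with the label WT mTmG, written WT, and each library is named by its own tag (m1, t1, t4, t6 or t7). Colon muscularis also gave 1 library of single nuclei per genotype. Carmn is a long non-coding RNA gene, iKO is the label's word for its knockout, and mTmG is the name of a fluorescent reporter allele. Not given in the sources used here are the driver and onset of the deletion, the age of the mice, any treatment, and whether a group's libraries came from separate mice. The p-values therefore measure only the spread between these libraries, which may be technical.

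Acetylcholine released by enteric motor neurons contracts gut muscle mainly through the muscarinic receptor encoded by Chrm3, which couples to Gq and phospholipase C and releases stored calcium. The receptor encoded by Chrm2 is the more abundant muscarinic receptor of gut muscle, couples to Gi and opposes the cyclic AMP that relaxes the muscle. Tachykinins such as substance P act through the Gq-coupled receptors of Tacr1 and Tacr2. Noradrenaline acts through the Gq-coupled receptor of Adra1a, and relaxes gut muscle through the cyclic AMP-raising receptor of Adrb3. Serotonin, made mostly in the mucosa, acts through the cyclic AMP-raising receptor of Htr4 and the Gq-coupled receptor of Htr2b.

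The bulk libraries held 24254905 to 44315104 counts each. The knocked-out gene went against its label in bulk: Carmn stood at 461, 304 and 718 CPM (counts per 1000000, scaled between libraries) in colon KO m1, t4 and t6, and at 252, 171 and 351 CPM in colon WT t1, t6 and t7. In jejunum it stood at 996, 817 and 909 CPM in KO m1, t1 and t4, and at 240, 206 and 326 CPM in WT t1, t6 and t7, with no overlap. The colon groups overlapped. Its log2 fold change was 0.94 in colon (adjusted p = 0.234 by edgeR) and 1.82 in jejunum (adjusted p = 0.0646 by edgeR), neither under 0.05. Every direction below is therefore that of the libraries labelled KO. In the nuclei, Carmn was lower in the KO library, with 211 CPM of unique molecules (UMIs) against 658 CPM in WT. The 10 smooth muscle markers summed to between 33700 and 89964 CPM in the 12 libraries, with none of them at 0. Epithelial markers, which belong to the mucosa, summed to between 83.2 and 3591 CPM.

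The promoters of 4 of the receptor genes are printed because the nuclei bear on them or because the gene carries the main bulk result. RefSeq's GRCm38.p6 promoter table held a window for 5 of the 8 genes, running from 250 bases before the start to 50 bases after it. Each line below reads 5′ to 3′ on the gene's own strand, and capitals mark the letters of a motif match. The Chrm2 window is chr6:36387834-36388133 (plus strand), the Chrm3 window chr13:10360754-10361053 (minus), the Tacr2 window chr10:62252188-62252487 (plus) and the Htr2b window chr1:86111931-86112230 (minus).
Chrm2: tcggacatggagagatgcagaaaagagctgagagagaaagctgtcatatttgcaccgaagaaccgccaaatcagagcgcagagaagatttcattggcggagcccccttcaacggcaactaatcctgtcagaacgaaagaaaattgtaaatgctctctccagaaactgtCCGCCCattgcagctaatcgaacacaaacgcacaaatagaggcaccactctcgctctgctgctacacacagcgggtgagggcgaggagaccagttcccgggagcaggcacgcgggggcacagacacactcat
Chrm3: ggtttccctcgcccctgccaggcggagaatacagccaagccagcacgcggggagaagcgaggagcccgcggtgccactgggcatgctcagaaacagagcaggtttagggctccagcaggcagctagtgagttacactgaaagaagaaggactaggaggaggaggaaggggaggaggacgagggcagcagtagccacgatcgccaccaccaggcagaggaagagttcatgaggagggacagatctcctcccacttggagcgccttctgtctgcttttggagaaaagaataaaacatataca
Tacr2: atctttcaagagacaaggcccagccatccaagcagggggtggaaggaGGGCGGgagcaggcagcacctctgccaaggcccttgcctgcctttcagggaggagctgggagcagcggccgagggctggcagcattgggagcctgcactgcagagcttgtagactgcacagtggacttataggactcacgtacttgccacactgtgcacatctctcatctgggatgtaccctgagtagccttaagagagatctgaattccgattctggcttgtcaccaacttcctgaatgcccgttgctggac
Htr2b: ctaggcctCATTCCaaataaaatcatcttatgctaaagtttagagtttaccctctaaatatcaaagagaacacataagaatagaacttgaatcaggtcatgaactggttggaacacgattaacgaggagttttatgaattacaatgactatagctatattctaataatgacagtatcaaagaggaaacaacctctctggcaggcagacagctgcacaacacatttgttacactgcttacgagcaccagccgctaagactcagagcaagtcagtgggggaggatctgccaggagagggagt
Motifs were searched on both strands. The letters GGGCGG, the core bound by Sp1, were found 1 time in the Tacr2 window and 1 time in the Chrm2 window, there read as CCGCCC from the opposite strand. This hexamer is present in 35.7% of the 32851 promoter windows of the same length. The letters CATTCC, the core bound by TEAD factors, were found 1 time in the Htr2b window and in 14.7% of all windows. The CArG box, bound by serum response factor, was found in 1.63% of all windows and in none of the 4 printed, nor in that of Tacr1. No match overlapped another, and a match is a description of letters only.

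Open regions, deposited with the nuclei as counts per region, were listed separately in each library, so that presence in only 1 list is not a difference between genotypes. Only 11.6% of the region values in WT and 11.5% in KO were odd. They were used as deposited, so 1 count may not be 1 fragment. The WT list held a region over the start of Chrm3 (chr13:10360572-10361371), with 76 counts or 29.99 CPM of the library's region counts, and a region over the start of Tacr2 (chr10:62251829-62252788), with 70 counts or 27.6 CPM. Each spanned all 300 bases of its printed promoter. WT also had a region over the start of Htr4. The KO list held a region over the start of Htr2b (chr1:86111712-86112424), with 27 counts or 17.3 CPM, which spanned the whole printed window. Chrm2 had 1 listed region in WT, far inside the gene (chr6:36507026-36507722, 12 counts), and none over its start in either list.

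In the annotation used for lengths and positions (GENCODE M21 on GRCm38), Chrm2 lies at chr6:36388084-36528414 and Chrm3 at chr13:9875486-10360847. Tacr1 lies at chr6:82402334-82560104, Tacr2 at chr10:62252438-62265990, Htr2b at chr1:86099026-86111970, Adrb3 at chr8:27225776-27250616 and Adra1a at chr14:66635251-66771168. Htr4 lies on chromosome 18. Exons of Chrm2, Htr2b and Adrb3 overlap exons of a gene on the opposite strand (9330158H04Rik, Psmd1 and Gm45470). The sources used here do not give whether the counting used strand, so the counts of these 3 receptors are uncertain.

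Chrm2 was the most abundant of the 8 receptor genes in WT muscularis when levels were divided by exon length. In WT colon it reached 38.0 ± 7.64 CPM per kilobase (mean ± SD, n = 3), followed by Tacr2 at 22.0 ± 3.45. Next in WT colon came Adrb3 (5.97 ± 2.05 CPM per kilobase), Htr2b (5.65 ± 1.30), Chrm3 (5.56 ± 1.79) and Tacr1 (4.70 ± 0.115), each within the spread of its neighbour. Htr4 (0.672 ± 0.625 CPM per kilobase) and Adra1a (0.570 ± 0.151) were the lowest in WT colon and also lay within each other's spread. WT jejunum kept Chrm2 at the top, at 61.6 ± 11.4 CPM per kilobase, and Tacr2 next, at 15.6 ± 2.12. There Adrb3 (11.6 ± 4.79) reached into the spread of Tacr2, and in WT t1 it lay above it, at 15.2 against 13.2 CPM per kilobase. Adrb3 and Htr2b (10.7 ± 3.01) lay within each other's spread, as did Tacr1 (2.66 ± 0.507) and Chrm3 (2.36 ± 0.378), and Adra1a (0.706 ± 0.0935) and Htr4 (0.430 ± 0.0782) were again the lowest.

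**Figure D1:**
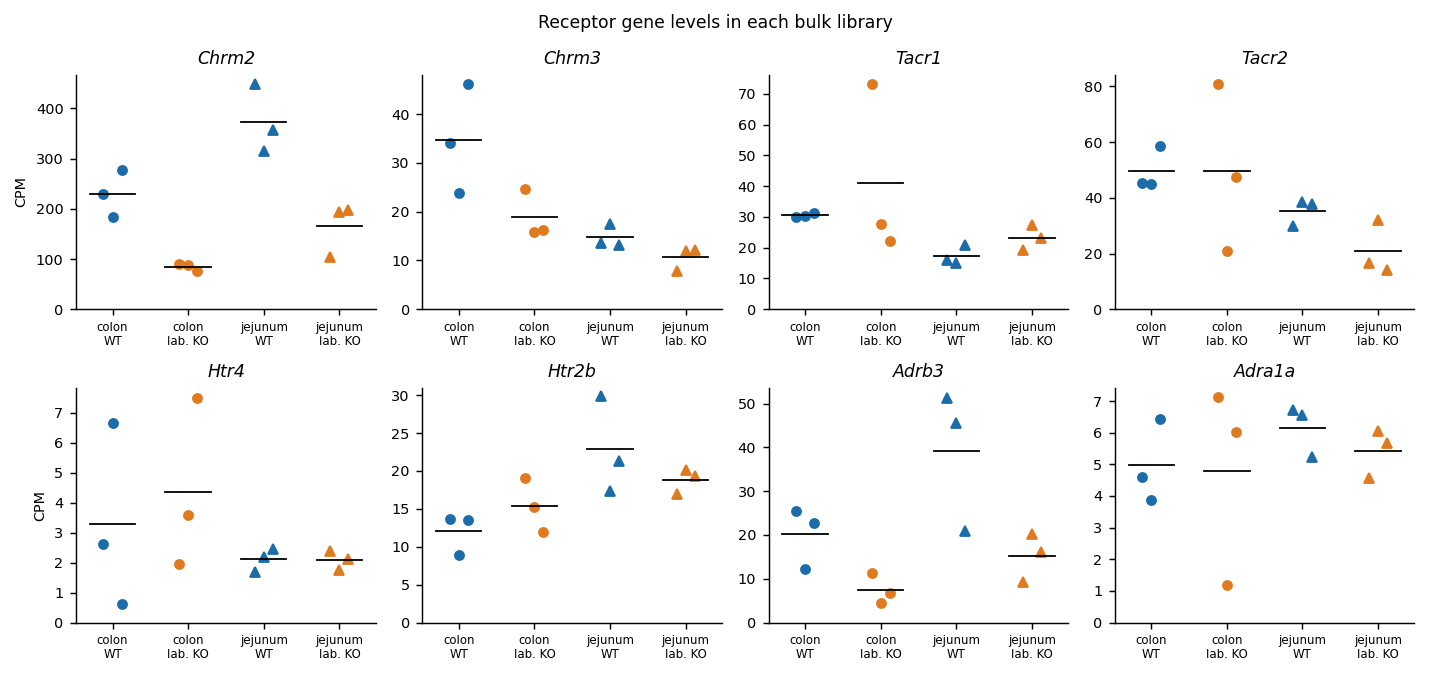
Levels of the 8 receptor genes in each bulk library, in scaled CPM on an axis that starts at 0; points are libraries, circles colon and triangles jejunum, and bars the group means of 3 libraries. All 3 colon libraries labelled KO lie below all 3 WT colon libraries for Chrm2 and Adrb3, and colon KO m1 stands alone for Tacr1 at 73.3 CPM.

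Every library labelled KO held less Chrm2 than every WT library of its gut region, and the difference passed the test in colon. In colon its level was 90.5, 87.1 and 75.3 CPM in KO m1, t4 and t6, and 229, 185 and 277 CPM in WT t1, t6 and t7. The KO libraries lay close together and well below the WT libraries. The log2 fold change was -1.45 (SE 0.26, 95% interval -2.02 to -0.88), a level of 0.366 times that of WT, with an adjusted p of 0.0433 (edgeR's quasi-likelihood test with Benjamini-Hochberg adjustment over all 20886 genes tested, threshold 0.05). Of the 8 receptors 1, Chrm2, passed the threshold in colon, where 0.388% of all genes tested passed. The call was lost in most fits that left out 1 library: with any of the 12 left out except jejunum KO m1 the adjusted p by edgeR lay between 0.0590 and 0.190, and without jejunum KO m1 it was 0.0132, while the log2 fold change stayed between -1.56 and -1.27. The gene on the opposite strand, 9330158H04Rik, averaged 36.5 CPM in WT colon and 13.1 CPM in KO colon.

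In jejunum Chrm2 stood at 105, 193 and 198 CPM in KO m1, t1 and t4, and at 449, 314 and 356 CPM in WT t1, t6 and t7. The groups again did not overlap. At a log2 fold change of -1.17 (SE 0.26) and an adjusted p of 0.0971, edgeR did not call it. The 2 genotype differences differed by -0.28 on the log2 scale (colon minus jejunum), with an edgeR adjusted p of 0.9405 or higher for each of the 8 receptors. Smooth muscle markers summed to 33700 to 45452 CPM in colon KO and to 48089 to 70077 CPM in colon WT, where all 10 had a negative log2 fold change, a median of -0.49, none past the threshold and none at 0. Their part in the colon difference was not tested. In jejunum the same sum was 89964, 43155 and 45883 CPM in KO m1, t1 and t4, and 38810 to 42667 CPM in WT, so that KO m1 stood far above the rest and the other KO libraries just above WT. There 7 of the 10 markers had a positive log2 fold change, with a median of 0.36 and none past the threshold, and their part was not tested. In bulk tissue, fewer cells of a type and less RNA per cell cannot be told apart.

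Chrm3, the receptor gene of the main contractile path, passed the threshold in neither region. In colon it stood at 24.6, 15.8 and 16.3 CPM in KO m1, t4 and t6, and at 34.1, 23.9 and 46.2 CPM in WT t1, t6 and t7. KO m1 lay above WT t6, so the colon groups overlapped. Its log2 fold change in colon, -0.88 (SE 0.28), had an adjusted p of 0.188 by edgeR. In jejunum Chrm3 stood at 7.92, 11.8 and 12.2 CPM in KO m1, t1 and t4, and at 13.5, 17.5 and 13.2 CPM in WT t1, t6 and t7, with no overlap. There its log2 fold change, -0.47 (SE 0.28), had an adjusted p of 0.500 by edgeR.

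Between gut regions neither muscarinic gene passed. WT colon minus WT jejunum was -0.70 on the log2 scale for Chrm2, with SE 0.26 and an edgeR adjusted p of 0.248. For Chrm3 it was 1.24, with SE 0.28 and an edgeR adjusted p of 0.0542. Still, all 3 WT colon libraries lay beyond all 3 WT jejunum libraries for both genes. Chrm3 moved past the threshold without colon KO t4 (adjusted p = 0.0446 by edgeR), without colon WT t6 (0.0498) or without jejunum KO m1 (0.0402). Among the libraries labelled KO the same 2 differences were -0.97 (SE 0.26; adjusted p = 0.0895 by edgeR) for Chrm2 and 0.83 (SE 0.28; adjusted p = 0.162 by edgeR) for Chrm3, again with no overlap. Without jejunum KO m1, Chrm2 passed there (log2 fold change -1.22, adjusted p = 0.0200 by edgeR).

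The ratio of Chrm2 to Chrm3 within a library, with both levels per kilobase, separated the 4 groups. All ratios were added after the levels had been seen, so their p-values are descriptions only. It was 3.804, 5.71 and 4.76 in colon KO m1, t4 and t6, and 6.92, 7.98 and 6.19 in colon WT t1, t6 and t7. In jejunum it was 13.6, 16.9 and 16.9 in KO m1, t1 and t4, and 34.3, 18.6 and 27.8 in WT t1, t6 and t7. KO lay below WT in both regions and colon below jejunum in both genotypes, without overlap in any of these 4 comparisons. Each had a two-sided exact permutation p of 0.1, the smallest that 3 libraries against 3 can give, and an adjusted p of 0.267 over the 16 ratio comparisons made.

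**Figure D2:**
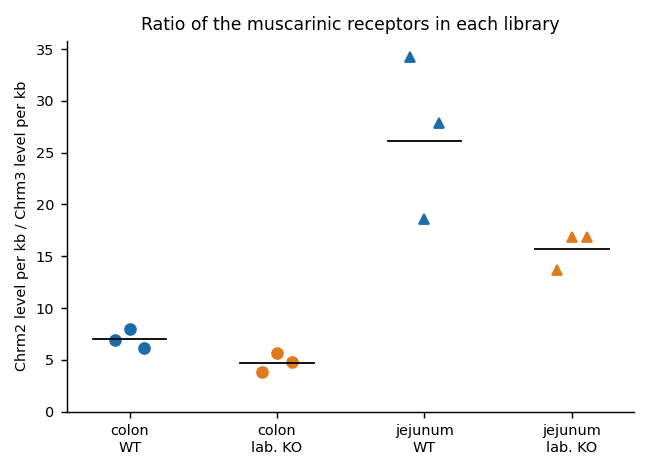
Ratio of Chrm2 to Chrm3 in each bulk library, both levels in CPM per kilobase of exon, on an axis that starts at 0. Points are libraries and bars the geometric means of the 3 libraries of a group. Colon libraries lie between 3.804 and 7.98 and jejunum libraries between 13.6 and 34.3.

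Tacr1, the receptor gene for substance P, did not pass the threshold in any comparison. In colon it stood at 73.3, 27.6 and 22.0 CPM in KO m1, t4 and t6, and at 29.8, 30.4 and 31.3 CPM in WT t1, t6 and t7. The WT libraries lay within 2 CPM of each other, whereas KO m1 stood far above and the other KO libraries below them. The log2 fold change of 0.43 (SE 0.37; adjusted p = 0.652 by edgeR) turned to -0.30 without colon KO m1. In jejunum it stood at 19.2, 27.3 and 23.1 CPM in KO m1, t1 and t4, and at 15.8, 14.9 and 21.0 CPM in WT t1, t6 and t7. KO m1 lay below WT t7, so the groups overlapped, and the log2 fold change was 0.43 with an edgeR adjusted p of 0.659. WT colon lay above WT jejunum without overlap, at a difference of 0.82 on the log2 scale with SE 0.37 and an edgeR adjusted p of 0.373.

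Tacr2, the receptor gene for neurokinin A, split by library in colon too. It stood at 80.9, 21.0 and 47.4 CPM in colon KO m1, t4 and t6, and at 45.2, 45.0 and 58.6 CPM in WT t1, t6 and t7. KO m1 was the highest and KO t4 the lowest of the 6 colon libraries. Its log2 fold change of 0.01 (SE 0.42; adjusted p = 0.997 by edgeR) changed sign when single libraries were left out (-0.54 to 0.37). In jejunum Tacr2 stood at 16.7, 32.0 and 13.9 CPM in KO m1, t1 and t4, and at 29.7, 38.3 and 37.6 CPM in WT t1, t6 and t7. Only KO t1 reached into the WT range, and the log2 fold change was -0.76 (SE 0.43; adjusted p = 0.476 by edgeR). WT colon lay above WT jejunum in every library (log2 fold change 0.49, adjusted p = 0.713 by edgeR). Among the libraries labelled KO the difference was 1.25 (SE 0.43; adjusted p = 0.168 by edgeR), and it passed without colon KO t4 (1.62, adjusted p = 0.0321 by edgeR). The library colon KO t4 also held the highest sum of Pdgfra fibroblast-like markers in colon, 16408 CPM against 4083 to 10227 CPM in the other 5, and the part of those cells was not tested. The ratio of Tacr1 to Tacr2 in jejunum, per kilobase, was 0.3997, 0.297 and 0.578 in KO m1, t1 and t4, and 0.185, 0.135 and 0.194 in WT t1, t6 and t7, without overlap (exact permutation p = 0.1, adjusted 0.267 over the 16). This ratio too was added after the levels had been seen.

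Htr4, a receptor gene of cyclic AMP signalling, was low and uneven in colon. It stood at 1.95, 3.61 and 7.50 CPM in KO m1, t4 and t6, and at 2.63, 6.65 and 0.624 CPM in WT t1, t6 and t7. Its extremes lay in the libraries with the extremes of the summed 10 epithelial markers: the sum was highest in WT t6 (3591 CPM) and KO t6 (2492 CPM), where Htr4 was highest, and lowest in WT t7 (83.2 CPM), where Htr4 was lowest. The part of epithelium in these values was not tested. The log2 fold change in colon, 0.39 with SE 0.67, had an edgeR adjusted p of 0.853. In jejunum Htr4 stood at 2.39, 1.76 and 2.13 CPM in KO m1, t1 and t4, and at 1.69, 2.18 and 2.45 CPM in WT t1, t6 and t7, with a log2 fold change of -0.02 (adjusted p = 0.996 by edgeR). The jejunum libraries differed by less than 1 CPM and their epithelial sums ranged from 294 to 860 CPM.

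Htr2b, the Gq-coupled serotonin receptor gene, stood at 19.0, 15.2 and 11.9 CPM in colon KO m1, t4 and t6, and at 13.7, 8.85 and 13.6 CPM in WT t1, t6 and t7. In jejunum it stood at 17.0, 20.2 and 19.3 CPM in KO m1, t1 and t4, and at 29.9, 17.3 and 21.3 CPM in WT t1, t6 and t7. The groups overlapped in both regions, with log2 fold changes of 0.35 in colon (SE 0.26; adjusted p = 0.571 by edgeR) and -0.28 in jejunum (adjusted p = 0.675 by edgeR). WT colon lay below WT jejunum without overlap (log2 fold change -0.92, SE 0.26; adjusted p = 0.117 by edgeR). Psmd1, the proteasome gene on the opposite strand, averaged 70.3 to 98.8 CPM in the 4 groups, several times the Htr2b level.

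Adrb3, the receptor gene through which noradrenaline relaxes gut muscle, had log2 fold changes about as large as those of Chrm2 but spread more widely. It stood at 11.2, 4.37 and 6.76 CPM in colon KO m1, t4 and t6, and at 25.4, 12.3 and 22.8 CPM in WT t1, t6 and t7. In jejunum it stood at 9.29, 20.3 and 16.1 CPM in KO m1, t1 and t4, and at 51.3, 45.7 and 20.9 CPM in WT t1, t6 and t7. Neither region had an overlap between the genotypes. KO differed from WT by -1.43 on the log2 scale in colon (SE 0.45; adjusted p = 0.188 by edgeR) and by -1.36 in jejunum (SE 0.45; adjusted p = 0.225 by edgeR).

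Adrb3 is also a receptor of fat cells. The 6 adipocyte markers summed to 74.9, 15.4 and 28.6 CPM in colon KO m1, t4 and t6, and to 103, 95.4 and 53.1 CPM in WT t1, t6 and t7. In jejunum they summed to 81.0, 531 and 58.8 CPM in KO m1, t1 and t4, and to 679, 673 and 67.8 CPM in WT t1, t6 and t7. The jejunum libraries with sums of 679 and 673 CPM had the highest Adrb3 levels, while KO t1, at 531 CPM, had 20.3 CPM of Adrb3, just below WT t7. Of the 6 markers 5 had a negative log2 fold change in colon and 6 in jejunum, none passed in either, and Adipoq, Lep and Plin1 were at 0 in colon KO t4. Their part in the difference was not tested.

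**Figure D3:**
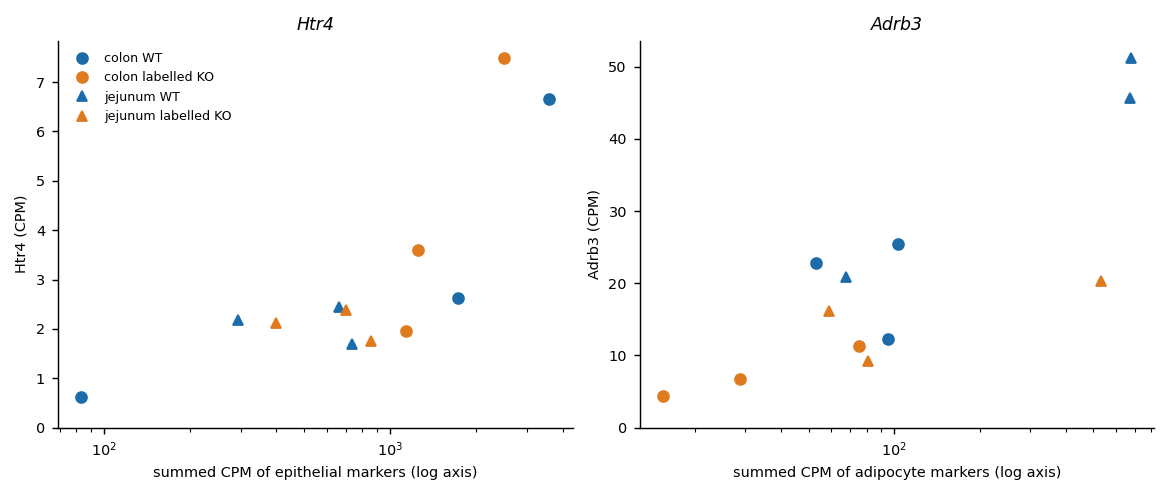
Bulk level of Htr4 against the sum of 10 epithelial markers (left) and of Adrb3 against the sum of 6 adipocyte markers (right), in CPM, with the marker sums on a log axis; each point is 1 of the 12 libraries. Htr4 is highest in the 2 colon libraries with the largest epithelial sums, and Adrb3 is highest in the 2 WT jejunum libraries with adipocyte sums of 679 and 673 CPM.

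Adra1a, the Gq-coupled receptor gene for noradrenaline, was low everywhere. It stood at 7.12, 1.18 and 6.03 CPM in colon KO m1, t4 and t6, and at 4.60, 3.87 and 6.44 CPM in WT t1, t6 and t7. In jejunum it stood at 4.57, 6.04 and 5.68 CPM in KO m1, t1 and t4, and at 6.70, 6.55 and 5.22 CPM in WT t1, t6 and t7. Groups overlapped in both regions, and colon KO t4 was the lowest of the 12 libraries. The log2 fold changes were -0.05 in colon (adjusted p = 0.979 by edgeR) and -0.18 in jejunum (adjusted p = 0.913 by edgeR).

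Across the 8 receptors, 1 passed the threshold in colon (Chrm2) and none in jejunum, where 0.215% of all genes tested passed. None passed for the difference between the genotype effects of the 2 regions (0% of all genes), for WT colon against WT jejunum (1.56% of all genes) or for KO colon against KO jejunum (1.29% of all genes), each by edgeR. With unadjusted p under 0.05 there were 3 receptors in colon, 2 in jejunum, none for the difference between regions, 4 for the WT regions and 5 for the KO regions. Of all 20886 genes tested, 3026, 2762, 869, 2744 and 3707 had such a p in the same order. DESeq2 called 2, 1, 0, 2 and 1 receptors in the same order, beside 960, 805, 37, 1160 and 1427 of all genes tested. Limma voom called 1, 0, 0, 0 and 0 receptors, beside 95, 76, 0, 351 and 295 of all genes tested. Groups did not overlap for 2 receptors in colon (19.2% of all genes tested), 3 in jejunum (22.2%), 5 between the WT regions (22.9%) and 2 between the KO regions (19.6%). The median log2 fold change of the 8 was -0.02 in colon and -0.37 in jejunum, beside 0.00 and 0.02 over all genes tested. The 9 macrophage markers summed to 573 to 1441 CPM in jejunum KO and 170 to 393 CPM in jejunum WT, without overlap. All 9 had a positive log2 fold change there, with a median of 1.76, none past the threshold and none at 0, and their part in the jejunum values was not tested. In colon their sums were 369 to 1190 CPM in KO and 356 to 569 CPM in WT. The 2 genotype comparisons share no library, whereas each region comparison shares its libraries with them.

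**Figure D4:**
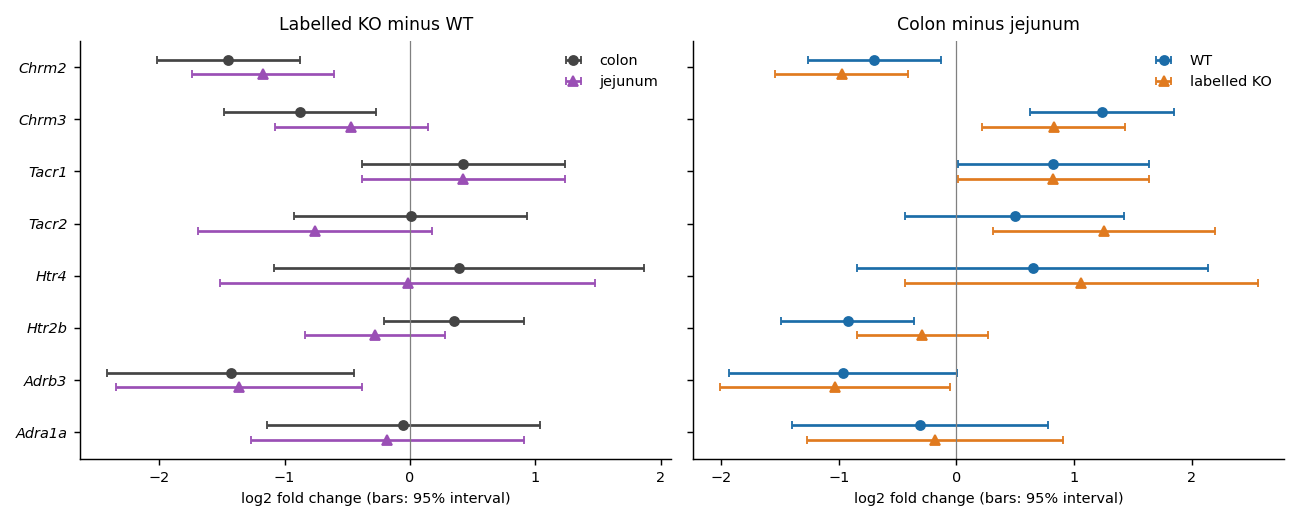
Log2 fold changes of the 8 receptor genes with 95% intervals from edgeR, for libraries labelled KO against WT in each gut region (left) and for colon against jejunum within each genotype (right). Chrm2 lies at -1.45 in colon and -1.17 in jejunum on the left, and Chrm3 is the gene farthest to the right for WT colon against WT jejunum at 1.24.

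Other genes of the same pathways were taken from lists of related receptors, transmitter supply and breakdown, G protein signalling and receptor regulators. Of 96 such genes 90 could be tested. In colon none passed by edgeR (17 with an unadjusted p under 0.05), 10 by DESeq2 and 1 by limma voom (Bche), with a median log2 fold change of 0.05. Of all 20886 genes tested, 81 passed there by edgeR (3026 with an unadjusted p under 0.05), 960 by DESeq2 and 95 by limma voom. In jejunum 1 passed by edgeR, with 18 at an unadjusted p under 0.05 and a median of -0.07. DESeq2 called 4 there (Adcy1, Bche, Gna14 and Gnai1) and limma voom 1 (Adcy1). Of all 20886 genes tested, 45 passed in jejunum by edgeR (2762 with an unadjusted p under 0.05), 805 by DESeq2 and 76 by limma voom. The gene called by all 3 tools was Adcy1, an adenylyl cyclase that makes cyclic AMP, at 14.98, 17.5 and 18.2 CPM in jejunum KO and 70.2, 71.7 and 74.2 CPM in WT, each in rising order. Its log2 fold change was -2.09, with SE 0.23 and an edgeR adjusted p of 0.00768, and without jejunum KO t4 the edgeR adjusted p was 0.0510. In colon its log2 fold change was -1.003 (SE 0.22; adjusted p = 0.0860 by edgeR).

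Among the other receptors of these families, 0 of 19 tested passed by edgeR in either region. At an unadjusted p under 0.05 there were 2 in colon and 1 in jejunum, beside 3026 and 2762 of all 20886 genes tested. DESeq2 called 2 of the 19 in colon (Htr1d and Tacr3), beside 960 of all genes tested, and 0 in jejunum, and limma voom 0 in both. Tacr3, the remaining tachykinin receptor gene, was low and had groups without overlap in both regions. It stood at 0.208 to 2.17 CPM in colon KO and 2.78 to 6.15 CPM in colon WT, and at 1.62 to 1.88 CPM in jejunum KO and 4.90 to 6.06 CPM in jejunum WT. Its log2 fold changes were -1.95 (adjusted p = 0.190 by edgeR) and -1.69 (adjusted p = 0.277 by edgeR). Chrm1, the remaining muscarinic gene with the smallest p, had log2 fold changes of 0.21 in colon and -0.54 in jejunum.

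Transmitter supply and signalling genes had no edgeR call in colon either. Bche, butyrylcholinesterase, which breaks down acetylcholine and related esters, stood at 5.52 to 18.7 CPM in colon KO and 49.4 to 55.2 CPM in colon WT (log2 fold change -2.16, SE 0.42; adjusted p = 0.0630 by edgeR), and had a log2 fold change of -1.38 in jejunum (adjusted p = 0.192 by edgeR). Gnai1, a Gi subunit through which the Chrm2 receptor can act, had log2 fold changes of -0.87 in colon (SE 0.18; adjusted p = 0.0787 by edgeR) and -0.64 in jejunum (adjusted p = 0.175 by edgeR). Prkcb, a protein kinase C gene on the Gq path, had a log2 fold change of -0.83 in colon (adjusted p = 0.116 by edgeR). Rgs5, a regulator that shortens G protein signals and also a marker of vascular mural cells, had log2 fold changes of -1.76 in colon (adjusted p = 0.141 by edgeR) and -1.28 in jejunum (adjusted p = 0.277 by edgeR). The 8 vascular mural markers, Rgs5 among them, summed to 1121 to 1435 CPM in colon KO and 1255 to 1745 CPM in colon WT. In jejunum they summed to 2237 to 3540 CPM in KO and 4156 to 5544 CPM in WT. Most of the 8 went the other way than Rgs5. In colon 6 had a positive log2 fold change (median 0.26) and in jejunum 6 (median 0.40), none past the threshold. The part of these cells was not tested.

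Between gut regions 7 of the 90 pathway genes passed by edgeR in WT, 3 higher in colon and 4 lower, where 1.56% of all genes tested passed. DESeq2 called 14 and limma voom 7 of the 90, beside 1160 and 351 of all 20886 genes tested. Plcb1, a phospholipase C that Gq activates, rose by 2.04 on the log2 scale (adjusted p = 0.00364 by edgeR), and Prkcb by 2.23 (adjusted p = 6.87e-04 by edgeR). Dbh, the enzyme that makes noradrenaline from dopamine, rose by 2.66 (adjusted p = 0.00774 by edgeR). Adcy1 fell by 1.52 (adjusted p = 0.00838 by edgeR) and Maob, a monoamine oxidase, fell by 2.43 (adjusted p = 0.0127 by edgeR), the latter missing the threshold without colon WT t1 (0.0675). Prkar2b, a regulatory subunit of protein kinase A, fell by 1.75 (adjusted p = 0.0361 by edgeR) and Rgs5 by 2.48 (adjusted p = 0.0301 by edgeR). Those 2 missed the threshold without any of several libraries: adjusted p was 0.0521 to 0.145 for Prkar2b without colon KO m1, colon WT t1, t6 or t7, or jejunum WT t1 or t6, and 0.0558 to 0.124 for Rgs5 without any 1 of the 6 WT libraries.

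Among the libraries labelled KO 6 of the 90 passed by edgeR, where 1.29% of all genes tested did. DESeq2 called 17 and limma voom 7 of the 90, beside 1427 and 295 of all 20886 genes tested. By edgeR these were Dbh (log2 fold change 2.33), Plcb1 (1.49) and Prkcb (1.08) higher in colon, and Bche (-2.22), Maob (-2.26) and Rgs5 (-2.97) lower, at edgeR adjusted p between 0.0199 and 0.0343. Each of these 6 missed the threshold without at least 1 library of the KO groups: without jejunum KO t4, edgeR adjusted p was 0.0679 for Dbh, 0.0731 for Plcb1, 0.121 for Prkcb, 0.0679 for Bche, 0.0630 for Maob and 0.0587 for Rgs5. Colon KO t6 and jejunum KO t1 had the same effect for some of them (0.0562 to 0.120). Some WT libraries and colon KO m1 did so too: Bche was at 0.0513 to 0.0583 without colon WT t1 or jejunum WT t1, t6 or t7, and Prkcb at 0.0548 to 0.0881 without colon KO m1, colon WT t1 or jejunum WT t1 or t6.

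Each receptor's closest genes were ranked by Pearson's r of log2 CPM over the 12 bulk libraries, which share genotype groups, gut region and cell makeup, so that the values are descriptions only. Chrm2 was closest to Krit1 (r = 0.954), Tbl1x (0.953) and Mmachc (0.951), and Chrm3 to Gpc6 (0.947), Vegfc (0.935) and Sfrp2 (0.933). Tacr1 was closest to Eml6 (0.883), Gm5067 (0.858) and Ttyh1 (0.845), and Tacr2 to Astn2 (0.947), Col9a2 (0.927) and Dgki (0.924). Htr4 was closest to Llgl2 (0.928), Vdr (0.919) and Klf5 (0.918), and Htr2b to Adgrg6 (0.867), Cox6b2 (0.857) and Nkx6-2 (0.836). Adrb3 was closest to Fbln7 (0.955), Hcar1 (0.951) and Tcim (0.948), and Adra1a to Lmod1 (0.946), Scube2 (0.925) and Bdh2 (0.924). Among the 28 pairs of receptors themselves the highest r was that of Chrm2 with Adrb3 (0.906), and Chrm3 with Tacr2 reached 0.735.

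The colon nuclei show which cells of the wall held these transcripts. After filters on UMIs, genes and mitochondrial share, 2656 WT and 1684 KO nuclei were kept, with median depths of 1694.5 and 2012 UMIs, and 11 barcodes were listed in both libraries. They fell into 21 clusters made without the 8 receptors and Carmn, and a cluster was called X-like from markers. With 1 library per genotype there is no test, and the 95% Poisson intervals below cover counting error only. Smooth muscle-like nuclei were 548 in WT and 211 in KO. Most of those in WT lay in cluster 0 (507 nuclei, 132 in KO), while cluster 3 held 41 in WT and 79 in KO. Class values of the 2 libraries therefore cover different mixes of these clusters, and the part of this was not tested for any gene. Cluster 1 (227 WT and 197 KO nuclei, led by Igfbp2, Alkal1, Fn1 and Fgf7) had smooth muscle markers but stayed unnamed because a vascular mural marker, Abcc9, was among its 10 leading genes and no smooth muscle marker was. The mean log2 fold of the smooth muscle markers over the other nuclei was 1.72 in cluster 1, 2.08 in cluster 0 and 1.19 in cluster 3. Values of the smooth muscle-like class therefore leave out nuclei of cluster 1 that had these markers. They also leave out cluster 16 (110 WT and 18 KO nuclei, led by Hs3st4, Dpp10 and Grin3a). Smooth muscle was its best marker list too, with all 10 markers detected. Their mean log2 fold there, 0.73, was too low for a name under the rule used.

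In nuclei, levels are UMIs per 1000000 UMIs of the class and library, again written CPM. Statements below of where a gene was highest rank the named types only. Among these Chrm2 was highest in smooth muscle-like nuclei of WT, at 1682.5 CPM (interval 1618 to 1749, 2574 UMIs), which lay below the unnamed cluster 1 at 2783 CPM. Neuron-like nuclei followed with 1202 CPM (interval 1140 to 1267), and interstitial cell of Cajal-like nuclei, the pacemaker and relay cells of the wall, with 805 (interval 663 to 967). Glia-like nuclei, taken as a type that should lack the gene, stood at 108 CPM (interval 90.9 to 128). In the KO library smooth muscle-like nuclei stood at 1068.5 CPM (interval 998 to 1142, 860 UMIs), below neuron-like nuclei at 1153 (interval 1081 to 1229), with glia-like nuclei at 42.3. Within cluster 0 the values were 1724 CPM in WT and 1541 in KO. Within cluster 3 they were 1147 and 723, and within the unnamed cluster 1 they were 2783 (interval 2631 to 2940) and 1173 (interval 1089 to 1262). Of all Chrm2 UMIs, neuron-like nuclei held 20.55% in WT and 29.24% in KO. Smooth muscle-like nuclei held 38.0% and 26.41%, and unnamed clusters 34.32% and 35.41%.

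Chrm3 had its highest level in Cajal-like nuclei of both libraries, above that of smooth muscle-like nuclei. It reached 3845 CPM in WT (interval 3528 to 4184, 540 UMIs in 65 nuclei) and 4518 in KO (interval 4147 to 4914, 545 UMIs in 49 nuclei). The Cajal-like nuclei were few, and held 11.66% of all Chrm3 UMIs in WT and 24.67% in KO. Smooth muscle-like nuclei held more of them, 42.29% and 31.55%, and unnamed clusters 25.55% and 27.07%. Smooth muscle-like nuclei stood at 1280 CPM in WT (interval 1224 to 1338) and 866 in KO (interval 803 to 933), with glia-like nuclei at 133 and 72.0. Cluster 3 made up 41 of the 548 smooth muscle-like nuclei in WT and 79 of the 211 in KO. The part of this mix in the Chrm3 values was not tested. Epithelial-like nuclei stood at 658 CPM in WT, of which the cluster led by the goblet cell genes Clca1 and Muc2 had 1014 and the cluster with the ion transport genes Slc26a3 and Cftr 216. In KO the same clusters stood at 393 and 68.7 CPM. Of the 548 WT smooth muscle-like nuclei 349 had UMIs of both Chrm2 and Chrm3, out of 425 with Chrm2 and 428 with Chrm3, at a median depth of 2084 UMIs. In glia-like WT nuclei, at a median depth of 1917 UMIs, 39 of 512 had a UMI of Chrm2 and 39 of Chrm3.

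Tacr1 was highest in smooth muscle-like nuclei of WT. It stood at 227 CPM in WT smooth muscle-like nuclei (interval 204 to 253, 348 UMIs) and at 190 in KO (interval 161 to 223, 153 UMIs), against 10.9 and 17.2 in glia-like nuclei. Within cluster 0 it stood at 245 in WT and 412 in KO, and within the unnamed cluster 1 at 32.9 in WT (interval 18.4 to 54.3) and 312 in KO (interval 269 to 359). Cluster 3 held 9.03 and 28.0 CPM. Macrophage-like nuclei of KO reached 310 CPM, but 83 of their 84 UMIs came from 1 nucleus, and 3.69 CPM remained without it. Tacr2 was sparse, with 28 UMIs in WT smooth muscle-like nuclei (18.3 CPM, interval 12.2 to 26.4) and 15 in KO (18.6, interval 10.4 to 30.7), and at most 1 UMI in each library's neuron-like, glia-like, epithelial-like or Cajal-like nuclei. More of its 71 WT UMIs, 39, lay in unnamed clusters: 18 in cluster 11, whose nuclei were deep (median 8134.5 UMIs, 11.003 CPM), 14 in cluster 16 (44.5 CPM, interval 24.3 to 74.7) and 7 in cluster 1 (15.4 CPM). Clusters 16 and 1 had smooth muscle as their best marker list. Of its 26 KO UMIs 7 lay in unnamed clusters and 3 in mesothelial-like nuclei.

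Htr4 was highest in epithelial-like nuclei, then in neuron-like nuclei, and near background in smooth muscle-like nuclei. Epithelial-like nuclei held 425 CPM in WT (interval 378 to 477) and 1248 in KO (interval 1119 to 1388), nearly all in the cluster with Slc26a3 and Cftr (903 in WT, 1754 in KO) rather than the goblet-type cluster (41.5 and 107). Neuron-like nuclei held 107 CPM in WT and 165 in KO, from neuron-like cluster 12 (189 and 294) and not cluster 17, which is led by Nos1 (3.90 and 8.04). Smooth muscle-like nuclei had 5 UMIs in WT (3.27 CPM) and 3 in KO (3.73), close to the 2.33 and 9.40 CPM of glia-like nuclei.

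Htr2b was highest in Cajal-like nuclei of WT, at 171 CPM in WT (interval 109 to 254, 24 UMIs) and 149 in KO (interval 88.4 to 236, 18 UMIs). In smooth muscle-like nuclei it stood at 13.1 CPM in WT (interval 7.99 to 20.2, 20 UMIs) and 210 in KO (interval 179 to 244, 169 UMIs). Almost all of these UMIs lay in cluster 3, with 162.5 CPM in WT (18 UMIs) and 361 in KO (168 UMIs), while cluster 0 held 1.41 and 2.94. The share of cluster 3 in the class differed too, at 41 of 548 nuclei in WT and 79 of 211 in KO. Both this share and the level within cluster 3 were higher in KO, and the part of each in the class value was not tested. Neuron-like nuclei stood at 64.8 CPM in WT (interval 50.9 to 81.2) and 173 in KO (interval 146 to 204), and glia-like nuclei at 4.67 and 1.57.

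Adrb3 had only 49 UMIs in the WT nuclei and 40 in the KO nuclei. Smooth muscle-like nuclei held 9 UMIs in each (5.88 and 11.2 CPM), and no cluster was called adipocyte-like. Most of the WT UMIs, 32, lay in unnamed clusters, with 17 in cluster 11 (10.4 CPM) and 14 in cluster 1 (30.7 CPM, interval 16.8 to 51.6). In KO 16 lay in unnamed clusters, 9 of them in cluster 1 (14.6 CPM, interval 6.69 to 27.8), and 10 in Pdgfra fibroblast-like nuclei. The order of Adrb3 among the named types was not detectable at this depth: the highest WT value, in blood endothelial-like nuclei, rested on 1 UMI. Adra1a was highest in Pdgfra fibroblast-like nuclei, with 389 CPM in WT (interval 315 to 475, 96 UMIs) and 56.7 in KO (interval 35.9 to 85.0, 23 UMIs). Smooth muscle-like nuclei had no UMI of it, 0 of 548 in WT and 0 of 211 in KO, where a count of 0 allows up to 1.96 and 3.73 CPM (3 counts of the total). Glia-like nuclei stood at 1.56 and 1.57 CPM.

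**Figure D5:**
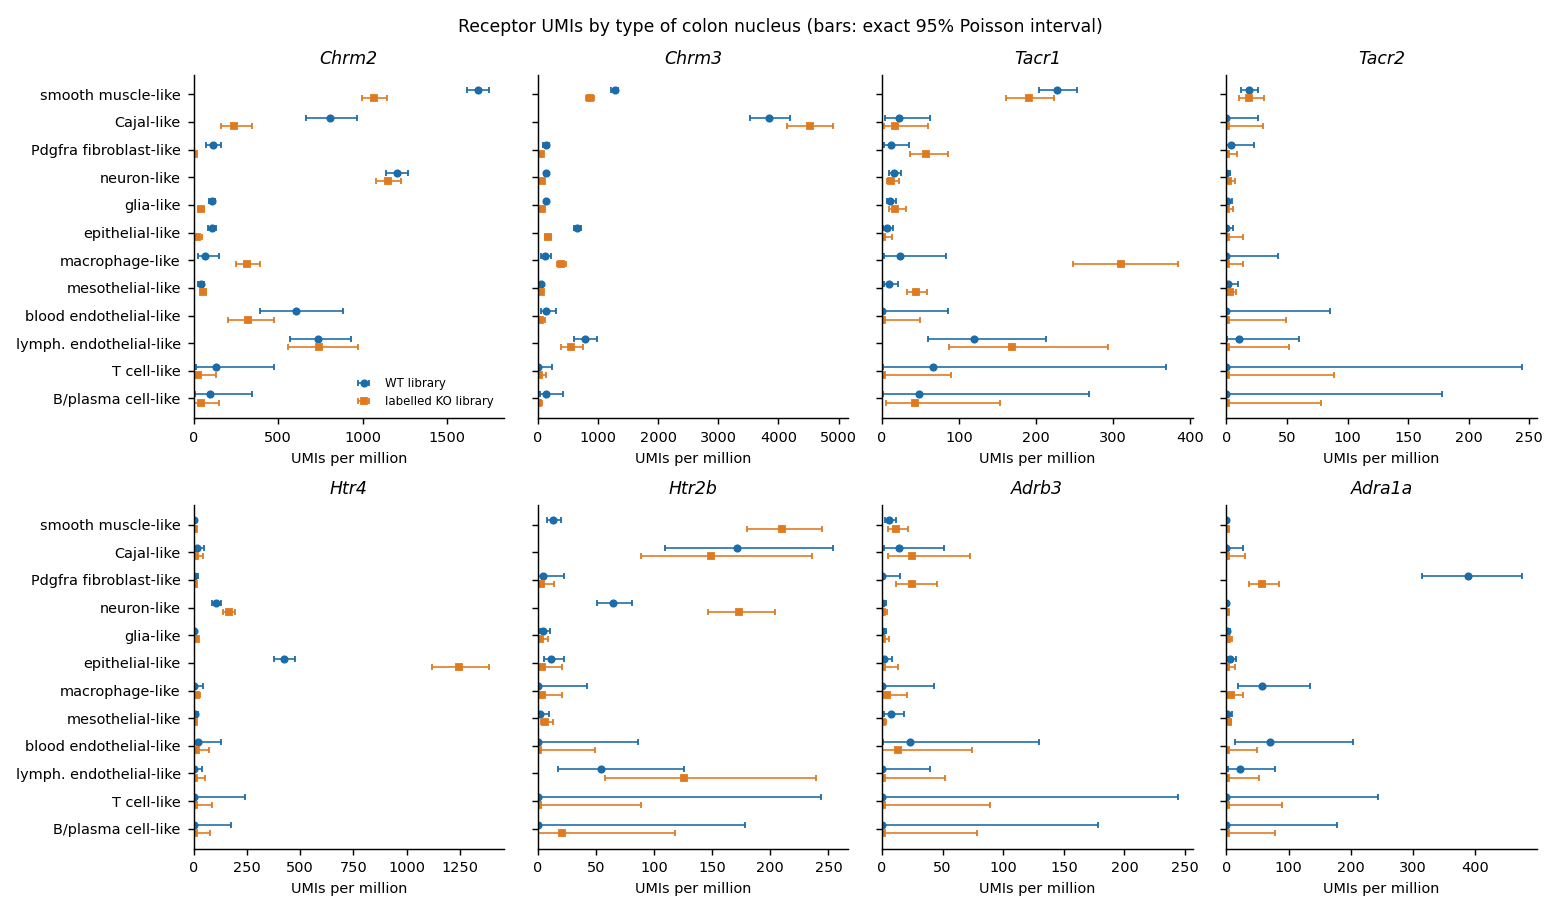
Level in UMI CPM of each receptor gene by named type of colon nucleus, with exact 95% Poisson intervals, on a separate axis for each gene. Circles are the WT library and squares the KO library. Nuclei of unnamed clusters, 383 in WT and 263 in KO, are not drawn. Chrm3 peaks in Cajal-like nuclei at 3845 and 4518, Htr4 in epithelial-like nuclei at 425 and 1248, and Adra1a in Pdgfra fibroblast-like nuclei at 389 and 56.7.

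Counted over the 8 receptors, 3 had their highest level of all named types in smooth muscle-like nuclei of WT (Chrm2, Tacr1 and Tacr2), and 2 did in KO (Tacr2 and Htr2b). With each type's nucleus richest in the gene left out, an alternative added after the data were seen, the KO count was 3, since Tacr1 joined.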

How the data were processed

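The 12 bulk libraries and 2 libraries of colon nuclei were analysed from the deposited tables. The 8 receptors and all gene lists were chosen with earlier results of these data known. The authors deposited raw counts per gene for the bulk libraries, and UMI counts and open-region counts per barcode for the nuclei, made with cellranger-arc 2.0.0 per the file headers. The submitters' processing notes name STAR 2.0.4b, Subread, featureCounts 1.4.5, edgeR and Cell Ranger, with the builds GRCm38 and mm10. Not given in the sources used here: whether strand was used.

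Of 40757 bulk entries 276 repeats were dropped. Counts were scaled by TMM, filtered with filterByExpr and tested with edgeR 4.0.16 (R 4.3.3) in 1 fit of all 12 libraries, with 1 mean per group and 8 residual degrees of freedom. Adjusted p-values are Benjamini-Hochberg over 20886 genes, with a threshold of 0.05. Log2 CPM had a prior count of 2. The test was run on simulated counts with changes larger than those of any receptor, which does not show its power for the receptors. Named genes were the 8 receptors, the pathway genes past the threshold or with the smallest p of their list, and the 3 genes closest to each receptor. No pair of libraries agreed within sampling noise (smallest chi-square per gene 57.06).

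All gene values of the nuclei were even and were divided by 2, so 1 unit is taken as 1 UMI. Barcodes with at least 500 UMIs, 300 genes and at most 10% mitochondrial UMIs were kept. Scrublet called 4 of 2660 WT and 0 of 1684 KO nuclei doublets, and the 4 were removed. Nuclei were clustered with scanpy 1.11.5 (2000 variable genes, 30 components, 15 neighbours, Leiden resolution 0.8). Marker lists were set first, but the rule that named clusters was set after the clusters were seen. Depth was 24254905 to 44315104 counts per bulk library. The fold changes were recomputed with other scalings, filters, tools and sets of libraries.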

Additional observations from a re-analysis of the deposited data

How the results depend on the processing

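The number of receptors past the threshold moved with the processing. In colon it was 1 in the reported fit, 0 with total-count scaling, 0 with only the 6 libraries compared, 2 with DESeq2 1.42.0 (Chrm2 and Adrb3) and 0 to 1 when each library was left out in turn. In jejunum it was 0, and 1 with DESeq2 (Chrm2). Between the WT regions it was 0, then 1 with a filter of 1 CPM in 3 libraries, 2 with DESeq2 (Chrm3 and Htr2b), 2 with only the 6 libraries compared (Chrm3 and Tacr1) and 0 to 1 over the left-out libraries. Between the KO regions it was 0, then 1 with DESeq2 (Chrm2) and 0 to 1 over the left-out libraries. The edgeR adjusted p of Chrm2 in colon was 0.0888 with total counts and 0.123 with the 6 colon libraries, and DESeq2's was 5.29e-05. The cause of these moves was not tested. Fits on 6 libraries have fewer samples, and the part of this was not tested either. The number of receptors highest in smooth muscle-like nuclei stayed at 3 with Leiden resolutions of 0.4 and 1.5 and without doublet removal, and was 2 with at least 1000 UMIs, where Tacr1 was highest in B lymphocyte-like or plasma cell-like nuclei on 10 UMIs in 20 nuclei (197 CPM).

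Over all genes DESeq2 called 960 in colon, 805 in jejunum, 37 for the difference between regions, 1160 between the WT regions and 1427 between the KO regions, against 81, 45, 0, 325 and 270 by edgeR. Only the 6 compared libraries gave 0, 21, 904 and 4 calls for the 4 comparisons of groups, total counts gave 26 in jejunum, and limma voom gave 76 there. Total counts gave 158 higher and 111 lower calls between the WT regions (145 and 180 with TMM), and 93 and 90 between the KO regions (96 and 174). Leaving out colon KO t4 gave 384 and 229 between the KO regions, and leaving out jejunum KO t4 gave 5 and 56.

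Signs turned for several receptors, Htr4 among them with a log2 difference of 0.65 between the WT regions in the reported fit. Tacr2 in colon was -0.17 with limma voom and -0.19 with the replicate block. For the difference between regions, Tacr1 was -0.000336 with RLE size factors, -0.00193 with the 1 CPM filter, -0.000414 with DESeq2, -0.21 with limma voom and -0.24 with the block, and Adra1a was -0.10 with limma voom and -0.0741 with the block. Leaving out single libraries gave log2 ranges of -0.30 to 0.74 (Tacr1), -0.54 to 0.37 (Tacr2), -0.46 to 0.41 (Adra1a) and -0.23 to 1.43 (Htr4) in colon, and -0.166 to 0.0928 (Htr4) in jejunum. For the difference between regions the ranges were -0.73 to 0.33 (Tacr1), -0.28 to 0.58 (Adra1a), -0.49 to 0.26 (Adrb3) and -0.20 to 1.46 (Htr4). They were -0.42 to 1.08 for Htr4 between the WT regions and -0.59 to 0.27 for Adra1a between the KO regions.

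Whether libraries of colon and jejunum that share a genotype and a tag came from 1 mouse is not given. Their deviations correlated at -0.163 and -0.095 in KO and at 0.1002, -0.008 and 0.061 in WT, and not every library correlated best with its own tag. With 3 libraries per group these values cannot show whether a tag marks a mouse. Among the KO libraries only m1 and t4 occur in both regions, so the block pairs only those. With the tag as a replicate block by duplicateCorrelation the counts of receptors past the threshold were 1 in colon (Chrm2, adjusted p = 0.0382) and 0 in the other comparisons, as reported, with 77 genes called in jejunum. With the block as fixed terms 0 receptors passed in the 3 comparisons across regions, 29 genes were called between the WT regions and 3 between the KO regions, and 5 of the 7 WT pathway calls between regions (adjusted p = 0.0602 for Prkcb, 0.0935 for Adcy1, 0.146 for Maob, 0.1545 for Prkar2b and 0.224 for Rgs5) and all 6 KO ones (0.214 to 0.538) missed the threshold by edgeR. There the differences of the genotype effects between regions were 0.0025 for Chrm2, 0.13 for Adrb3 and -0.45 for Adra1a.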
